A study of Rattus norvegicus with 294 samples.

Results

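Osteoblasts taken from ovariectomized rats on day 85 of weekly dosing with a sclerostin antibody were compared with osteoblasts from rats given vehicle, at a low and at a high dose. They were chosen by their labels, as the arrays with cell type osteoblast and time point day 85, and made up 14 of the 294 arrays of the series and 14 of its 97 osteoblast arrays. The vehicle group held 5 arrays, the 3 mg/kg group 5 and the 50 mg/kg group 4. The animals were female Sprague-Dawley rats whose ovaries had been removed (OVX) at 6 months of age and that then went without treatment for 8 weeks, so the vehicle rats had been ovariectomized too and no rat with ovaries was compared here. Vehicle or 3 or 50 mg/kg of the antibody (Scl-Ab), a form engineered to be less immunogenic in rats, was injected under the skin once a week. Calcein, a dye that binds to newly laid mineral, was given at 10 mg/kg 13 and 3 days before death, so that bone-forming surfaces could be found in sections of the third lumbar vertebra. The cells on those surfaces were cut out by laser capture microdissection, and their amplified RNA was hybridized to Affymetrix Rat 230_2 arrays. The captured material is therefore enriched for osteoblasts and not pure, and in such bulk material fewer cells of a type and less RNA per cell cannot be told apart. The labels number no rats, so the p-values below measure a spread between arrays, which may be partly technical. Those of limma take this spread from all 97 osteoblast arrays, or from all arrays of the series where lining cells are compared.

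Sclerostin is a secreted protein made mainly by osteocytes, the cells embedded in bone. It binds the Wnt co-receptors LRP5, LRP6 and LRP4 on cells of the osteoblast lineage and so holds back Wnt signalling, which drives bone formation. An antibody to it releases that brake: osteoblasts lay down osteoid, a matrix made chiefly of type I collagen with smaller amounts of other collagens and of mineral-binding proteins, which later mineralizes.

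Pearson's r between pairs of the 14 arrays, over all probe sets, lay between 0.952 and 0.983. The vehicle arrays were the least alike. The mean r of an array with the others of its group was 0.9546 to 0.9623 for vehicle. It was 0.9693 to 0.9765 at 3 mg/kg and 0.9789 to 0.9815 at 50 mg/kg. The signal range of an array, meaning the log2 distance between its median and its 90th percentile, was 3.04 ± 0.05 for the vehicle arrays, 3.11 ± 0.08 for those of the low dose and 3.22 ± 0.08 for those of the high dose (SD, n = 5, 5 and 4). No 50 mg/kg array overlapped the vehicle arrays in this measure (exact two-sided permutation test, p = 0.0079, adjusted p = 0.0794 over 30 values compared, where 0.00794 is the smallest p that 5 against 4 arrays allow). The label was checked against marker genes fixed for each cell type: 8 of 8 measured osteoblast markers lay above the median of their array in all 14 arrays. The same held for 9 of 9 megakaryocyte, 13 of 14 erythroid, 11 of 12 macrophage, 6 of 9 granulocyte, 6 of 7 B-lineage, 10 of 14 endothelial, 9 of 17 T and natural killer, 8 of 11 osteoclast, 9 of 16 osteocyte, 7 of 13 stromal, 5 of 13 adipocyte, 3 of 13 chondrocyte and 4 of 20 skeletal muscle markers. Marrow and osteoclast transcripts were thus present in these captures beside those of osteoblasts.

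At 50 mg/kg, 392 of 11420 genes tested rose and 127 fell against vehicle (limma, Benjamini-Hochberg adjusted p under 0.05 over all genes tested), which is 3.43% and 1.11% of them. At 3 mg/kg, 8 genes rose and 2 fell, 0.0701% and 0.0175% of the same 11420. At an unadjusted p under 0.05, 2188 genes differed at 50 mg/kg and 1056 at 3 mg/kg, while the median log2 difference over all genes was 0.03 and 0.02. Both comparisons use the same 5 vehicle arrays, so that an unusual vehicle array enters both. The difference between the doses was therefore tested directly: 119 genes were higher at 50 than at 3 mg/kg and 23 were lower, 1.04% and 0.201% of those tested.

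The count at 50 mg/kg depended on single arrays and on how the spread was estimated. It was 254 without 50 mg/kg array 4, 343 without 50 mg/kg array 2, and 132 when the spread was estimated from the compared groups alone instead of from all 97 osteoblast arrays. With quantile normalization, a scaling that gives each array the same distribution of values, 400 genes rose and 196 fell, and with the signal range of each array as a covariate 218 rose and 128 fell.

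**Figure D1:**
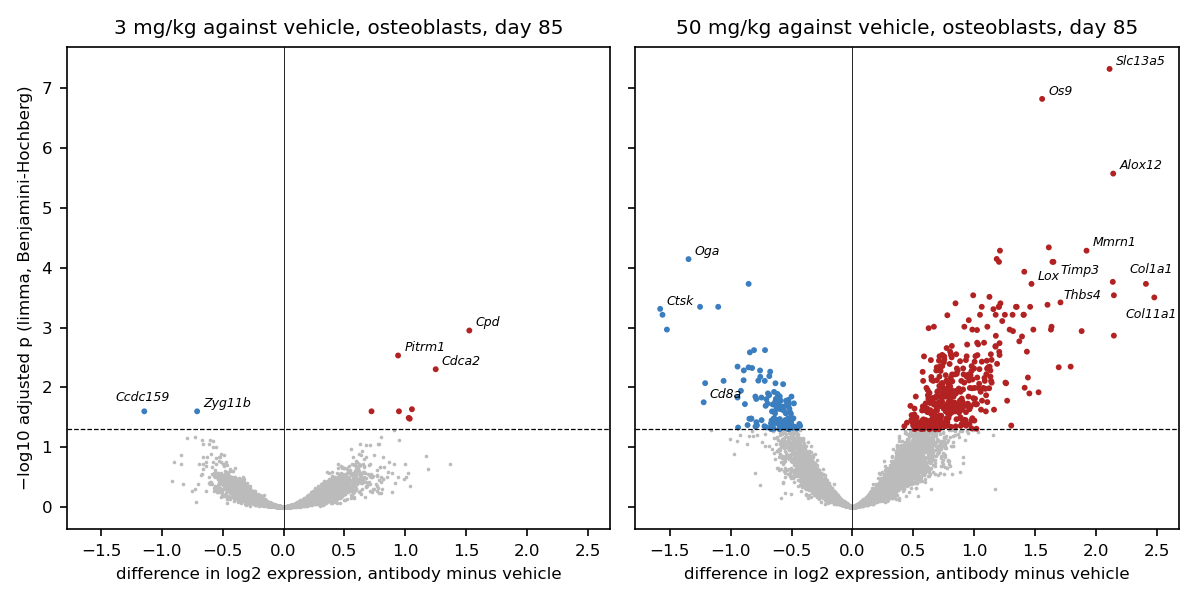
Log2 difference from vehicle (horizontal axis) against −log10 of the limma adjusted p (vertical axis) for each gene tested in day 85 osteoblasts, at 3 mg/kg (left) and 50 mg/kg (right); points above the dashed line, red for higher and blue for lower, passed an adjusted p of 0.05, and some are named. The right panel holds 392 higher and 127 lower genes and the left panel 8 and 2.

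The plot of differences against p-values shows the changes at both doses. The 10 largest rises at 50 mg/kg were Col11a1, Col1a1, Serpinf1, Thbs4, Cthrc1, Slc13a5, Smoc2 and Col5a2, which belong to the matrix, osteoblast or mineral lists, and the platelet and megakaryocyte genes Alox12 and Mmrn1. These lists were chosen with earlier results of these data known. In what follows, "alternatives" are 7 other ways of processing: no filter on low signal, quantile normalization, the mean over a gene's probe sets, array weights, the signal range as a covariate, vehicle array 4 (of low signal range) left out, and the compared groups alone. Where leaving out a single array ended a call, up to 3 such arrays are named and more are counted.

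The fibrillar collagens form the rope-like fibres of bone matrix, with type I as the bulk and types V and XI as minor chains inside the fibre that set its thickness. Of 11 fibrillar collagen genes tested, 6 rose at 50 mg/kg (Col1a1, Col1a2, Col5a1, Col5a2, Col11a1 and Col11a2), 1 fell (Col27a1) and 4 did not pass the test. Their median log2 difference was 1.49 against 0.03 for all genes, and the 6 of 11 stand beside 3.43% of all genes called higher. At 3 mg/kg none of the 11 passed the adjusted threshold, 4 had an unadjusted p under 0.05 with a higher level, and the median was 0.58. The number called higher stayed within 1.5 times under each alternative processing and with each single array left out.

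The upstream sequences of 3 fibrillar collagen genes that rose, and of the citrate transporter gene Slc13a5, whose rise at 50 mg/kg had the smallest p, are shown because each of these genes was called higher at 50 mg/kg. Each line gives the 250 bases before the RefSeq transcription start, 5′ to 3′ on the gene's strand, from the rat build GRCr8. Capitals mark TATAAA, the letters of a TATA box, and, on either strand of the gene, the letters of a CCAAT box.
Col1a2 (chr4:33518307-33518556, plus strand): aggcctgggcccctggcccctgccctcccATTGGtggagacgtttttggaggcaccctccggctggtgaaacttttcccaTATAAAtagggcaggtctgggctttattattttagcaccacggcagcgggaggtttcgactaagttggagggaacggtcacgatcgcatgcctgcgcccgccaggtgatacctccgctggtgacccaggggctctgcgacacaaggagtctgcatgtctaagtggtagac
Col5a2 (chr9:55090152-55090401, minus strand): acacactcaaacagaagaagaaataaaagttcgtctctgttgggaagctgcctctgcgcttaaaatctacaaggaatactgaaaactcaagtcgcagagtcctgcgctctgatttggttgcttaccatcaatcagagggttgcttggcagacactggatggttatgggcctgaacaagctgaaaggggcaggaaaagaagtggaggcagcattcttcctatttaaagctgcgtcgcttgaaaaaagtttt
Col11a1 (chr2:204508886-204509135, plus strand): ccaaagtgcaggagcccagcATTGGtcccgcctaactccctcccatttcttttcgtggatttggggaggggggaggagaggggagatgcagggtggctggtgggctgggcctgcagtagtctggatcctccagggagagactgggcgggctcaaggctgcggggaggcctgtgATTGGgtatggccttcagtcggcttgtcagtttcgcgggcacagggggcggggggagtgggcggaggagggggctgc
Slc13a5 (chr10:57388849-57389098, minus strand): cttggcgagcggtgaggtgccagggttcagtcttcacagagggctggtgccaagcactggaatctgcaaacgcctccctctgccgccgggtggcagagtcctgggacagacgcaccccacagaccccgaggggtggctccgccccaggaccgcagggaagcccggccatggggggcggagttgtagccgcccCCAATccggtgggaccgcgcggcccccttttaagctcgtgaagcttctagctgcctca

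These windows were searched on both strands for 4 short motifs: TATAAA of the TATA box, the CCAAT box, TGTGGT as the core bound by Runx factors, and the letters CTTTGA from the site bound by the Wnt effectors TCF and LEF. TATAAA was found in 13.1% of 27457 RefSeq promoters of this length, CCAAT in 34.3%, TGTGGT in 14.1% and CTTTGA in 13.8%. Of the 5 fibrillar collagens called higher that have an entry in the promoter table, 1 held TATAAA (Col1a2, 170 to 165 bases before the start), 2 held CCAAT (Col1a2 and Col11a1), 0 held TGTGGT and 1 held CTTTGA (Col11a2). In Slc13a5, CCAAT lay 58 to 54 bases before the start. A match is a match of letters only, and these counts describe the windows without showing a bound factor.

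Col1a1, the alpha-1 chain of type I collagen, had log2 signals of 9.87, 10.62, 7.52, 9.51 and 9.58 in the 5 vehicle arrays. At 3 mg/kg its signals were 10.33, 10.60, 10.98, 10.51 and 11.54, and at 50 mg/kg 11.55, 12.14, 11.64 and 12.00. The 50 mg/kg arrays lay above each vehicle and each 3 mg/kg array, the 3 mg/kg arrays overlapped vehicle, and vehicle array 3 was far below the rest. The log2 difference from vehicle was 2.41 (SE 0.43, limma adjusted p = 0.000186), a 5.33-fold rise, and at 3 mg/kg it was 1.37 (SE 0.41, adjusted p = 0.19). With any one array left out the 50 mg/kg difference stayed between 1.94 and 2.71. Another Col1a1 probe set gave 1.70.

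Col1a2, the alpha-2 chain of the same fibre, rose by 1.53 at 50 mg/kg (SE 0.40, limma adjusted p = 0.0121). Its vehicle signals were 11.76, 12.13, 9.45, 11.39 and 11.14, and its 50 mg/kg signals 12.59, 12.83, 12.34 and 13.06. The groups did not overlap, vehicle array 3 was again the lowest, and the call was lost without that array (adjusted p = 0.0898, difference 1.10), without 50 mg/kg array 4, or with the compared groups alone.

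Among the minor chains, Col11a1 had signals of 5.32, 5.25, 3.05, 5.60 and 4.57 in vehicle, 5.17, 5.04, 5.91, 5.88 and 5.81 at 3 mg/kg, and 7.0, 7.86, 6.23 and 7.87 at 50 mg/kg. All 4 arrays of the high dose exceeded the other 10. The rise was 2.48 (SE 0.46, limma adjusted p = 0.000314), a 5.58-fold change, and 2 other Col11a1 probe sets of low signal gave −0.05 and 0.04. Col5a1 rose by 1.65 (SE 0.28, adjusted p = 7.99e-05), from 7.66 ± 0.58 (SD, n = 5) to 9.31 ± 0.34 (SD, n = 4). Col5a2 rose by 1.79 (SE 0.42, adjusted p = 0.00449), and its second probe set gave 1.58. Col11a2 rose by 1.49 (SE 0.31, adjusted p = 0.00108). For each of these 4 genes the call held under each alternative and without any one array.

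Col27a1, a fibrillar collagen better known from cartilage, fell by 0.59 on the log2 scale (SE 0.18, limma adjusted p = 0.0467). It had signals of 3.86, 4.64, 3.95, 3.90 and 3.74 in vehicle and 3.41, 2.96, 3.84 and 3.52 at 50 mg/kg, which overlapped. The call was lost under 6 of 7 alternatives and without 6 of the 9 arrays, with an adjusted p of up to 0.249. Col3a1, the collagen of softer connective tissue, had a difference of 0.64 (SE 0.33, adjusted p = 0.278).

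**Figure D2:**
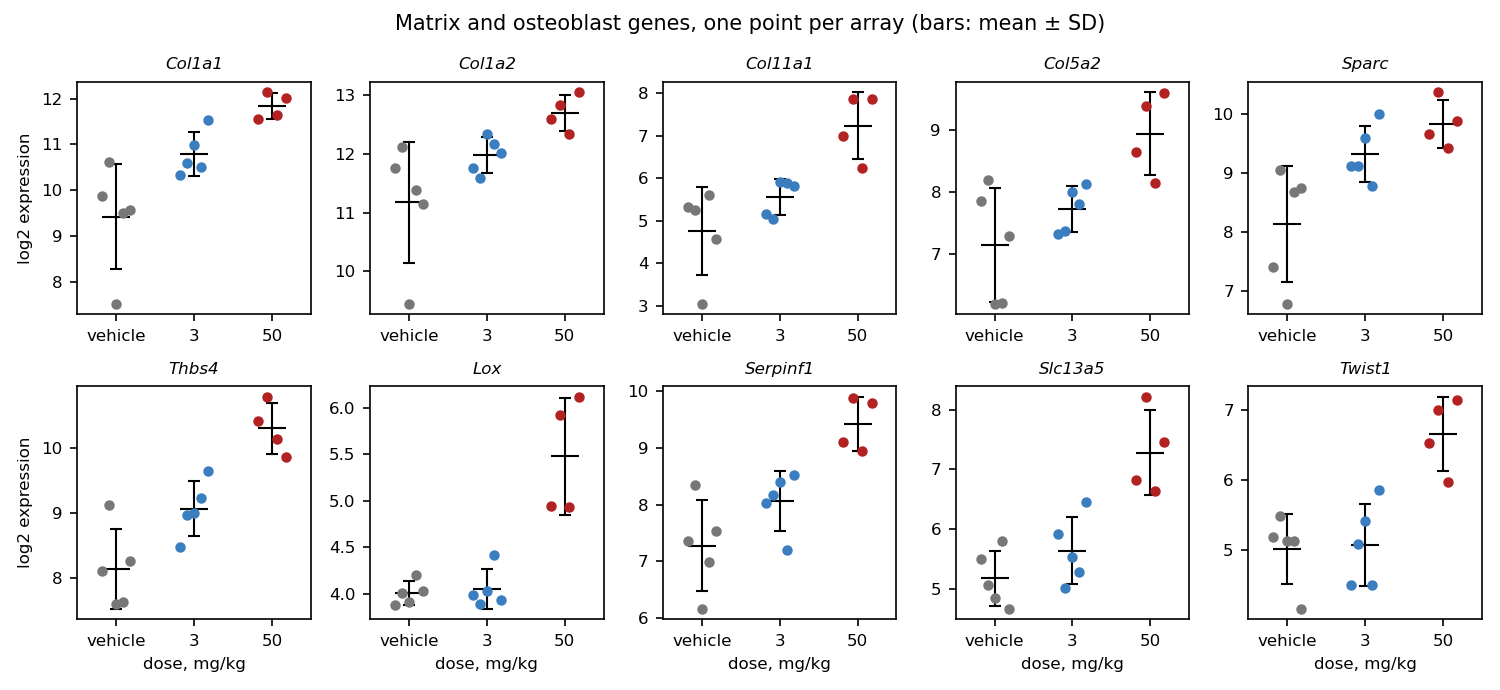
Log2 signal (vertical axis) of matrix and osteoblast genes in each day 85 osteoblast array, grouped by vehicle, 3 mg/kg and 50 mg/kg; points are arrays and bars the mean ± SD of a group. For Col1a1 the 50 mg/kg arrays sit between 11.55 and 12.14, above the highest vehicle array at 10.62, and vehicle array 3 lies at 7.52.

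Of 13 other collagens tested, 4 rose at 50 mg/kg and 0 fell, with a median log2 difference of 0.45 (0.17 at 3 mg/kg, where 0 were called). The 4 of 13 stand beside 3.43% of all genes called higher. Col6a1, a chain of the beaded filaments around cells, had signals of 6.19, 5.51, 5.87, 4.66 and 5.06 in vehicle and 7.0, 6.76, 6.72 and 6.73 at 50 mg/kg. The groups did not overlap, and the rise was 1.34 (SE 0.26, limma adjusted p = 0.00045). Col22a1 rose by 1.14 (adjusted p = 0.00833), Col13a1, a transmembrane collagen, by 0.94 (adjusted p = 0.00627), and Col4a2, a chain of basement membranes, by 0.74 (adjusted p = 0.00852). These 3 calls were lost with the compared groups alone and without 1 array each, namely 50 mg/kg array 4 for Col22a1 and Col13a1 and 50 mg/kg array 2 for Col4a2.

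Of 30 non-collagenous matrix genes tested, 8 rose at 50 mg/kg, beside 3.43% of all genes, and 0 fell, with a median of 0.17. The 8 were Thbs4, Cthrc1, Smoc2, Sparc, Omd, Dcn, Bglap and Fn1, so the list was split between a few large rises and many genes near 0. At 3 mg/kg 0 were called and the median was 0.24.

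Thbs4, a thrombospondin that binds collagen fibres, had signals of 8.11, 9.12, 7.61, 7.64 and 8.27 in vehicle, 8.49, 8.98, 9.0, 9.23 and 9.65 at 3 mg/kg, and 10.41, 10.79, 10.14 and 9.86 at 50 mg/kg. The high-dose arrays lay above all others and the low-dose arrays overlapped vehicle. The rise was 2.15 (SE 0.39, limma adjusted p = 0.000289) at 50 mg/kg, and the difference at 3 mg/kg was 0.92 (SE 0.37, adjusted p = 0.396). Cthrc1, a secreted protein with a short collagen-like repeat, rose by 2.14 (SE 0.38, adjusted p = 0.000172), with vehicle array 4 low at 4.84 beside 6.35 to 7.50 in the other 4. Sparc, or osteonectin, which binds collagen and calcium, rose by 1.70 (SE 0.39, adjusted p = 0.00461), and its second probe set gave 1.77. Omd, osteomodulin, a small leucine-rich proteoglycan of mineralized tissue, rose by 1.60 (SE 0.30, adjusted p = 0.000417).

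Smoc2, a calcium-binding matrix protein of the Sparc family, rose at the high dose. Its signals were 4.87, 5.73, 4.89, 4.62 and 6.48 in vehicle, 4.24, 4.97, 5.27, 5.56 and 4.67 at 3 mg/kg, and 7.20, 7.57, 6.20 and 7.84 at 50 mg/kg. The low-dose arrays lay within or below the vehicle range, and 50 mg/kg array 3 fell below the highest vehicle array. The rise at 50 mg/kg was 1.88 (SE 0.39, limma adjusted p = 0.00115) against vehicle and 2.26 (SE 0.39, adjusted p = 0.000173) against 3 mg/kg, while other Smoc2 probe sets, of lower signal, gave 0.05 and −0.11 against vehicle.

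Bglap, which encodes osteocalcin, the vitamin K-dependent protein of mineralizing osteoblasts, had signals of 10.27, 10.98, 8.98, 10.21 and 10.55 in vehicle and 11.57, 11.55, 11.10 and 11.80 at 50 mg/kg. The groups did not overlap and the rise was 1.31 (SE 0.40, limma adjusted p = 0.0434), but the call was lost under 7 of 7 alternatives and without 6 of 9 arrays, with an adjusted p of up to 0.153. Ibsp, bone sialoprotein, had a difference of 0.16 (SE 0.30, adjusted p = 0.816), Spp1, osteopontin, −0.42 (SE 0.34, adjusted p = 0.531) and Postn, periostin, −0.06 (SE 0.39, adjusted p = 0.959). These 3 had higher values at 3 mg/kg than at 50 mg/kg, though neither dose nor the difference between doses passed the test.

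Collagen needs dedicated enzymes and a chaperone to be folded, trimmed and crosslinked. Of 27 such genes tested, 7 rose at 50 mg/kg and 1 fell, with a median of 0.32 (0.12 and 0 called at 3 mg/kg). Of all genes, 3.43% were called higher and 1.11% lower. The rises were in Lox, Pcolce, Plod2, Serpinh1, Fkbp7, Sec24d and Mia3, and the fall in Colgalt1. The number of rises was 4 with the signal range as a covariate, without vehicle array 4 or 50 mg/kg array 4, or with the compared groups alone.

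Lox, lysyl oxidase, which starts collagen crosslinking outside the cell, had signals of 3.87, 4.01, 3.91, 4.20 and 4.03 in vehicle, 3.99, 3.89, 4.03, 4.42 and 3.93 at 3 mg/kg, and 4.94, 5.92, 4.93 and 6.12 at 50 mg/kg. The first 10 arrays were close together and the 4 high-dose arrays stood above them. The rise was 1.47 (SE 0.26, limma adjusted p = 0.000186) against vehicle and 1.43 (SE 0.26, adjusted p = 0.000515) against 3 mg/kg, and a Lox probe set of lower signal gave 0.26 against vehicle. Pcolce, which helps to cut the end of procollagen, rose by 1.21 (SE 0.27, adjusted p = 0.00254). Plod2, a lysyl hydroxylase that prepares crosslink sites, rose by 1.18 (SE 0.25, adjusted p = 0.00204). Serpinh1, the collagen chaperone HSP47, rose by 1.06 (SE 0.20, adjusted p = 0.00045), and its other probe set, of low signal, gave 0.14. Colgalt1, which adds galactose to collagen, fell by 0.53 on the log2 scale (SE 0.14, adjusted p = 0.0162), a call lost with the mean over probe sets, with the compared groups alone, and without 50 mg/kg array 2 or 4.

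The list of osteoblast differentiation holds regulators and surface proteins of the lineage. Of 19 osteoblast differentiation genes tested, 8 rose at 50 mg/kg, beside 3.43% of all genes, and 0 fell, with a median of 0.48. At 3 mg/kg 0 were called with a median of 0.24. The 8 were Serpinf1, Twist1, Tmem119, Cdh2, Bambi, Dlx5, Mef2c and Alpl. The number fell to 4 with the compared groups alone and to 5 under array weighting or without vehicle array 5 or 50 mg/kg array 4. A separate list of 8 osteoblast markers, which shares Col1a1, Col1a2, Bglap, Alpl, Sparc and Dlx5 with the lists above, had those 6 called higher and a median of 1.12 (0.48 at 3 mg/kg), but 3 without vehicle array 3 or with array weights and 2 without 50 mg/kg array 4 or with the compared groups alone. The mean log2 signal over these markers was 7.96 ± 0.53 for the vehicle arrays, 8.58 ± 0.17 for those of the low dose and 9.08 ± 0.24 for those of the high dose (SD, n = 5, 5 and 4). Its exact permutation p against vehicle was 0.0317 for the low dose and 0.0159 for the high dose, and neither passed after adjustment over the 30 values compared (adjusted p = 0.136 and 0.0952).

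Serpinf1 encodes pigment epithelium-derived factor, a secreted protein whose loss causes a brittle bone disease. Its signals were 7.36, 8.36, 6.17, 6.99 and 7.53 in vehicle, 8.03, 8.17, 8.41, 7.19 and 8.52 at 3 mg/kg, and 9.10, 9.88, 8.95 and 9.79 at 50 mg/kg. The high-dose arrays exceeded the others and the rise was 2.15 (SE 0.45, limma adjusted p = 0.00136). Twist1, a transcription factor of early mesenchyme, rose by 1.63 (SE 0.34, adjusted p = 0.00108) against vehicle and by 1.58 (SE 0.34, adjusted p = 0.00425) against 3 mg/kg, with 0.05 against vehicle from a second probe set of low signal. Tmem119, a membrane protein of osteoblasts, rose by 1.32 (SE 0.27, adjusted p = 0.00115), and Cdh2, N-cadherin, by 1.25 (SE 0.25, adjusted p = 0.000612). A Cdh2 probe set with a higher vehicle signal than the one used (5.16 against 4.40) gave −0.17, and one of low signal gave 0.51. Alpl, tissue-nonspecific alkaline phosphatase, rose by 0.77 (SE 0.24, adjusted p = 0.0396), but its groups overlapped and the call was lost under 5 alternatives and without 5 of 9 arrays.

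Of 13 genes of mineral and phosphate handling, 3 rose at 50 mg/kg, beside 3.43% of all genes, and 0 fell, with a median of 0.02. Slc13a5, a plasma membrane transporter that carries citrate into the cell, had signals of 5.49, 5.06, 4.83, 5.79 and 4.66 in vehicle, 5.92, 5.00, 5.53, 5.28 and 6.45 at 3 mg/kg, and 6.82, 8.22, 6.64 and 7.46 at 50 mg/kg. The high-dose arrays did not overlap either other group, and the low dose overlapped vehicle. The rise of 2.11 (SE 0.26, limma adjusted p = 4.79e-08), or 4.33-fold, had the smallest p of all genes tested at 50 mg/kg, and it was 1.64 (SE 0.26, adjusted p = 5.77e-05) against 3 mg/kg. Smpd3, a neutral sphingomyelinase needed for bone mineralization, rose by 1.39 (SE 0.29, adjusted p = 0.00141). The third was Alpl, given above. Of 12 osteocyte markers tested, Pdpn, podoplanin, of the early osteocyte, rose by 1.13 (adjusted p = 0.00659) and Irx5, a transcription factor, fell by 0.56 on the log2 scale (adjusted p = 0.036). A single call in each direction is too few to set this list apart from all genes. The call on Pdpn was lost with the compared groups alone and without 50 mg/kg array 2, and that on Irx5 under 6 alternatives and without 5 of 9 arrays. Dmp1 (0.18, SE 0.43, adjusted p = 0.864) and Mepe (0.17, SE 0.52, adjusted p = 0.9), matrix genes of osteocytes, did not pass.

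**Figure D3:**
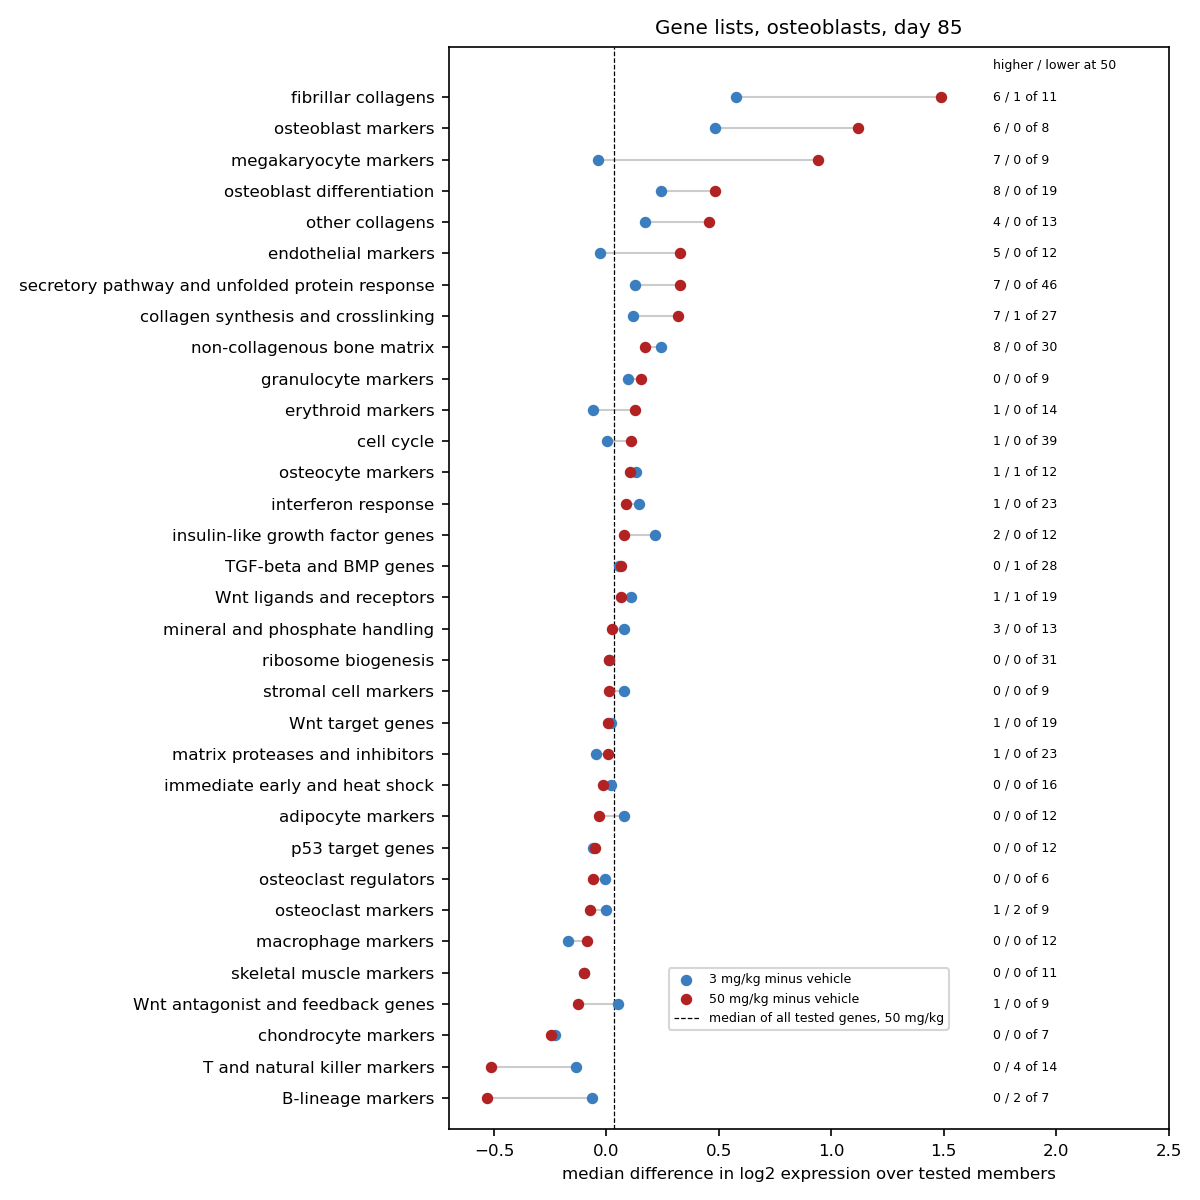
Median log2 difference from vehicle over the tested genes of each list (horizontal axis) in day 85 osteoblasts, blue for 3 mg/kg and red for 50 mg/kg; the dashed line is the median of all genes at 50 mg/kg and the column at the right gives how many genes were called higher and lower at 50 mg/kg. Fibrillar collagens (6 of 11 higher), osteoblast markers (6 of 8) and megakaryocyte markers (7 of 9) have the highest shares of rises, beside 3.43% of all genes.

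Sclerostin acts on the Wnt pathway, whose own genes were held in 3 lists. Of 9 Wnt antagonist and feedback genes tested, 1 rose (median −0.13), of 19 Wnt ligands and receptors 1 rose and 1 fell (median 0.06), and of 19 Wnt target genes 1 rose (median 0.01), each at 50 mg/kg and with 0 called at 3 mg/kg. These counts of 0 or 1 a list stand beside 3.43% of all genes called higher and 1.11% called lower and are too few to set the lists apart from them. Apcdd1, a membrane-bound Wnt inhibitor that is itself a Wnt target, had signals of 4.20, 4.00, 3.94, 4.34 and 4.31 in vehicle and 5.16, 4.57, 5.11 and 4.68 at 50 mg/kg. The groups did not overlap and the rise was 0.72 (SE 0.17, limma adjusted p = 0.00443), a call lost with the compared groups alone (adjusted p = 0.0639). Ryk, a Wnt co-receptor, rose by 0.73 (SE 0.20, adjusted p = 0.0205), and Wnt1 fell by 0.50 on the log2 scale (SE 0.13, adjusted p = 0.0142), each with the call lost under 3 alternatives, Ryk's also without 4 of 9 arrays and Wnt1's without vehicle array 4 or 50 mg/kg array 2. The Wnt target was Twist1, given above.

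Several Wnt genes of note did not pass at either dose. At 50 mg/kg the difference was 0.25 (SE 0.19, limma adjusted p = 0.493) for Lrp4, the sclerostin anchor, −0.13 (SE 0.17, adjusted p = 0.723) for Nkd2, an antagonist, −0.40 (SE 0.26, adjusted p = 0.397) for Lef1, a Wnt effector, and 0.51 (SE 0.23, adjusted p = 0.193) for Ccn4, a Wnt-induced matricellular gene. Sost itself, Lrp5, Lrp6, Axin2, Tcf7, Wnt5a and the osteoclast regulators Tnfsf11 and Tnfrsf11b did not clear the filter on low signal and were not tested, and Dkk1, Runx2 and Sp7 had no probe set assigned to that gene alone.

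The growth factor, protease, secretory and housekeeping lists follow. Their counts stand beside 3.43% of all genes called higher and 1.11% called lower. A single call in a list is too few to set it apart from these shares. Of 12 insulin-like growth factor genes, Igfbp3 rose by 1.21 (SE 0.27, limma adjusted p = 0.00287) and Igfbp7 by 0.84 (SE 0.23, adjusted p = 0.0179), both of them binding proteins, and the list's median was 0.08. Igfbp3 lost the call with the compared groups alone, and Igfbp7 under 2 alternatives and without vehicle array 4 or 50 mg/kg array 1 or 2. Igf1 (0.11, SE 0.21, adjusted p = 0.826) and Igfbp5 (0.56, SE 0.34, adjusted p = 0.367) did not pass. Of 28 TGF-beta and BMP genes (median 0.07), only the latent binding protein gene Ltbp2 was called, and it fell by 0.59 on the log2 scale (adjusted p = 0.0377), a call lost under 3 alternatives and without 4 of 9 arrays. Of 23 matrix proteases and inhibitors (median 0.01), Timp3, an inhibitor of metalloproteinases, was the one called: its signals were 6.35, 6.82, 7.30, 7.12 and 6.13 in vehicle, 6.57, 7.10, 6.48, 6.23 and 7.05 at 3 mg/kg, and 8.28, 8.09, 8.51 and 8.67 at 50 mg/kg. The high-dose arrays stood clear of the other 10, and the rise was 1.64 (SE 0.28, adjusted p = 7.99e-05) against vehicle and 1.70 (SE 0.28, adjusted p = 8.23e-05) against 3 mg/kg. Of 3 other Timp3 probe sets, 1 gave 1.05 and 2 of low signal gave 0.45 and −0.15 against vehicle.

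Of 46 genes of the secretory pathway and unfolded protein response, 7 rose at 50 mg/kg, beside 3.43% of all genes, and 0 fell. The median was 0.33, with all 46 differences above 0. The 7 included Kdelr3 (1.10, limma adjusted p = 0.0251) and Kdelr2 (0.76, adjusted p = 0.0442), which return escaped proteins to the endoplasmic reticulum, and Sec24d (0.87, adjusted p = 0.0227) and Sec23b (0.77, adjusted p = 0.0333), coat proteins of the vesicles that carry procollagen out. The number was 1 with the signal range as a covariate or without 50 mg/kg array 4, and 0 with the compared groups alone, and the part of the wider signal range of the 50 mg/kg arrays in this result was not tested further. Each of these 4 genes lost its call under 2 to 4 alternatives and without 4 to 7 of 9 arrays. Cell cycle genes gave 1 rise of 39 (Cenpe, 0.74, adjusted p = 0.0142, median 0.11) and interferon response genes 1 of 23 (Psmb8, 0.60, adjusted p = 0.0185, median 0.09). These counts of 1 are too few to set the lists apart from the 3.43% of all genes called higher. Cenpe lost the call under 2 alternatives and without vehicle array 3 or 50 mg/kg array 2, and Psmb8 under 3 and without 50 mg/kg array 1 or 2. Ribosome biogenesis (31 tested, median 0.01), p53 targets (12, −0.05), immediate early and heat shock genes (16, −0.02) and osteoclast regulators (6, −0.06) had 0 called. Over the 20 lists of this kind, which hold 395 distinct tested genes, 49 rose and 5 fell at 50 mg/kg, beside 3.43% and 1.11% of all genes. At 3 mg/kg 0 rose and 0 fell (unadjusted p under 0.05 in limma: 43 higher and 11 lower).

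The rise with the next smallest p after that of Slc13a5 was in Os9, a lectin that sends misfolded glycoproteins for degradation. Its signals were 6.13, 5.33, 5.50, 5.92 and 4.68 in vehicle, 6.03, 6.09, 5.91, 6.50 and 7.05 at 3 mg/kg, and 7.22, 7.01, 7.13 and 6.92 at 50 mg/kg. The high dose did not overlap vehicle, and low-dose array 5 reached into the high-dose range. The rise was 1.56 (SE 0.20, limma adjusted p = 1.52e-07), and at 3 mg/kg the difference was 0.80 (SE 0.19, adjusted p = 0.0667). The gene's other probe set, with a higher vehicle signal than the one used (6.05 against 5.51), gave −0.20 at 50 mg/kg. The 2 probe sets thus did not measure alike.

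Osteoclasts, the cells that resorb bone, share the surface with osteoblasts, and their genes were among the few that fell. Of 9 osteoclast markers tested, 2 fell at 50 mg/kg and 1 rose, beside 1.11% and 3.43% of all genes, with a median of −0.07. Ctsk, cathepsin K, the main collagen-degrading protease of osteoclasts, had signals of 10.89, 11.99, 12.00, 11.72 and 11.88 in vehicle, 11.90, 12.34, 12.32, 11.89 and 12.08 at 3 mg/kg, and 9.02, 10.17, 9.72 and 11.55 at 50 mg/kg. Of the high-dose arrays 3 lay below all vehicle arrays, while array 4 reached into the vehicle range. The change was −1.58 (SE 0.31, limma adjusted p = 0.000487), to 0.334 of the vehicle level, and the call was lost with the compared groups alone (adjusted p = 0.0607). Against 3 mg/kg it was −1.99 (SE 0.31, adjusted p = 2.36e-05), held under each alternative and without any one array.

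Acp5, tartrate-resistant acid phosphatase, had signals of 8.80, 9.83, 10.08, 9.56 and 9.66 in vehicle and 8.36, 8.41, 8.06 and 9.75 at 50 mg/kg. Array 4 of the high dose was again within the vehicle range, and the fall of 0.94 on the log2 scale (SE 0.30, limma adjusted p = 0.0467) was lost under 5 alternatives and without 7 of 9 arrays. Against 3 mg/kg it was −1.34 (SE 0.30, adjusted p = 0.00625). Slc9b2, a sodium-proton exchanger of osteoclasts, was −0.95 against vehicle (SE 0.33, adjusted p = 0.0774) and −1.40 against 3 mg/kg (SE 0.33, adjusted p = 0.0119). Itgb3, the integrin beta-3 chain, was the member that rose (0.86, SE 0.22, adjusted p = 0.0117), and it also belongs to the megakaryocyte list. Its call was lost with the compared groups alone and without vehicle array 5 or 50 mg/kg array 4, and the calls of Acp5 and Slc9b2 against 3 mg/kg were lost without 50 mg/kg array 3. The mean over 11 measured osteoclast markers was 7.02 ± 0.13 in vehicle and 6.78 ± 0.20 at 50 mg/kg (SD, n = 5 and 4, exact permutation p = 0.0794, adjusted p = 0.298), 2 of the 11 were above no array's median, and the part of osteoclast content in the falls was not tested.

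Among the markers of marrow cell types, those of megakaryocytes had the most calls. Of 9 megakaryocyte markers tested, 7 rose at 50 mg/kg, beside 3.43% of all genes, and 0 fell, with a median of 0.94. At 3 mg/kg 0 were called with a median of −0.04. Against 3 mg/kg 5 of the 9 were higher, beside 1.04% of all genes. The mean over the 9 was 8.61 ± 0.29 for the vehicle arrays, 8.58 ± 0.25 for those of the low dose and 9.46 ± 0.15 for those of the high dose (SD, n = 5, 5 and 4), a difference of 0.84 at the high dose whose exact permutation p of 0.0079 became 0.0794 after adjustment. The number called was 4 with the compared groups alone, without vehicle array 5 or without 50 mg/kg array 4.

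Selp, P-selectin, an adhesion molecule of platelet granules, had signals of 8.81, 8.22, 8.80, 9.20 and 8.15 in vehicle, 8.67, 8.55, 8.72, 8.29 and 8.41 at 3 mg/kg, and 9.51, 9.51, 9.69 and 9.84 at 50 mg/kg. The low dose overlapped vehicle and the high dose lay above both. The rise was 1.0 (SE 0.23, limma adjusted p = 0.00371). Treml1, a receptor of platelet granules, rose by 1.09 (SE 0.28, adjusted p = 0.0106), Gp9 by 1.02, Tubb1, the tubulin of platelets, by 0.95, Ppbp by 0.94 and Pf4, platelet factor 4, by 0.75. Gp9 and Tubb1 each lost the call under 1 alternative, without vehicle array 5 or 50 mg/kg array 4, and without 50 mg/kg array 1 and 2 respectively, and Pf4 lost it with the compared groups alone (adjusted p = 0.0639). Outside this list, Alox12, the platelet lipoxygenase, had signals of 5.93, 6.53, 5.49, 5.75 and 5.48 in vehicle, 6.69, 6.75, 6.31, 5.57 and 7.35 at 3 mg/kg, and 7.80, 8.03, 7.70 and 8.39 at 50 mg/kg. It rose by 2.14 (SE 0.31, adjusted p = 2.68e-06), with 0.70 (SE 0.29, adjusted p = 0.417) at 3 mg/kg. Mmrn1, multimerin, stored in platelets and endothelial cells, rose by 1.92 (SE 0.31, adjusted p = 5.2e-05), with 0.07 (SE 0.30, adjusted p = 0.971) at 3 mg/kg.

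Of 12 endothelial markers tested, 5 rose at 50 mg/kg, beside 3.43% of all genes, and 0 fell, with a median of 0.33 (−0.03 at 3 mg/kg). The 5 were Vwf (0.99, limma adjusted p = 0.0327), which platelets also store, the angiopoietin receptor gene Tek (0.76, adjusted p = 0.0112), the junction genes Cldn5 (0.66, adjusted p = 0.0262) and Esam (0.61, adjusted p = 0.0102), and Tie1 (0.52, adjusted p = 0.036). The number was 0 without 50 mg/kg array 4 and 1 with the compared groups alone, and Tek was the one that kept the call under each of the 7 alternatives. Leaving out single arrays ended the calls of Tek and Esam (50 mg/kg array 4), Cldn5 (vehicle array 3 or 50 mg/kg array 2 or 4), Vwf (5 of 9 arrays) and Tie1 (7 of 9). Erythroid markers had 1 rise of 14, the transferrin receptor gene Tfrc (0.74, adjusted p = 0.0172), with a median of 0.13, a call lost under 3 alternatives and without vehicle array 2 or 50 mg/kg array 2 or 4. This single call is too few to set the erythroid list apart from all genes. Granulocyte (9 tested, median 0.15), macrophage (12, −0.09), adipocyte (12, −0.03), stromal (9, 0.01), chondrocyte (7, −0.25) and skeletal muscle (11, −0.10) markers had 0 called at either dose.

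Some lymphocyte genes fell. Of 14 T and natural killer markers, 4 fell at 50 mg/kg and 0 rose (median −0.51), and of 7 B-lineage markers 2 fell and 0 rose (median −0.53), beside 1.11% of all genes called lower. Lck, the kinase of the T cell receptor, had signals of 6.68, 6.30, 6.60, 6.84 and 6.94 in vehicle, 6.09, 6.15, 5.53, 6.35 and 5.74 at 3 mg/kg, and 6.17, 5.18, 5.56 and 6.00 at 50 mg/kg. The high-dose arrays lay below all vehicle arrays, and the change was −0.94 (SE 0.22, limma adjusted p = 0.00449) at 50 mg/kg and −0.70 (SE 0.21, adjusted p = 0.187) at 3 mg/kg. Cd8a changed by −1.22 (SE 0.33, adjusted p = 0.0177), Cd3e by −0.84 (SE 0.19, adjusted p = 0.0026) and Cd5 by −0.66 (SE 0.20, adjusted p = 0.0356). Other probe sets, of low signal, gave −0.21 and −0.18 for Cd8a and −0.03 for Cd3e. Of the B-lineage genes, Ms4a1, which encodes CD20, changed by −1.06 (SE 0.26, adjusted p = 0.00777) and Cd22 by −0.75 (SE 0.22, adjusted p = 0.0352). Single arrays ended the calls of Lck (50 mg/kg array 2), Cd8a (vehicle array 3 or 50 mg/kg array 3), Ms4a1 (50 mg/kg array 3), and Cd5 and Cd22 (5 of 9 arrays each), and the compared groups alone ended those of Cd8a, Cd3e, Cd5 and Cd22.

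The count of T and natural killer falls was 1 with the compared groups alone and 2 under array weighting, without vehicle array 3 or without 50 mg/kg array 2. Among the 8 largest falls of all genes were further lymphocyte genes: Icos, a T cell co-stimulator, changed by −1.25 (SE 0.24, limma adjusted p = 0.00045), Blk, a B cell kinase, by −1.21 (SE 0.30, adjusted p = 0.00849) and Sit1, a lymphocyte adaptor, by −1.10 (SE 0.21, adjusted p = 0.00045). Of these 3, Icos has 2 further probe sets of low signal, which gave 0.06 and −0.12, and Blk lost the call with the mean over probe sets and without 50 mg/kg array 3. Oga, which removes sugar tags from nuclear and cytosolic proteins, changed by −1.35 (SE 0.23, adjusted p = 7.19e-05), with −0.06 and −0.08 from 2 probe sets of low signal. The other large falls were Rcan2, a calcineurin regulator (−1.56, SE 0.31, adjusted p = 0.000612), and Pde6h (−1.52, SE 0.31, adjusted p = 0.00108), of which Rcan2 lost the call with the compared groups alone. The mean over 17 measured T and natural killer markers was 5.03 ± 0.10 in vehicle and 4.64 ± 0.19 at 50 mg/kg, and over 7 B-lineage markers 6.41 ± 0.21 and 6.01 ± 0.19 (SD, n = 5 and 4, exact permutation adjusted p = 0.0794 and 0.136). Over the 13 lists of cell type markers, which include the osteoblast markers and hold 131 distinct tested genes, 19 rose and 8 fell at 50 mg/kg, beside 3.43% and 1.11% of all genes. Of the 19 rises, 6 were the osteoblast markers given above. At 3 mg/kg 0 rose and 0 fell (unadjusted p under 0.05 in limma: 5 higher and 7 lower). The part of the other cell types in the changes of the osteoblast genes was not tested.

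**Figure D4:**
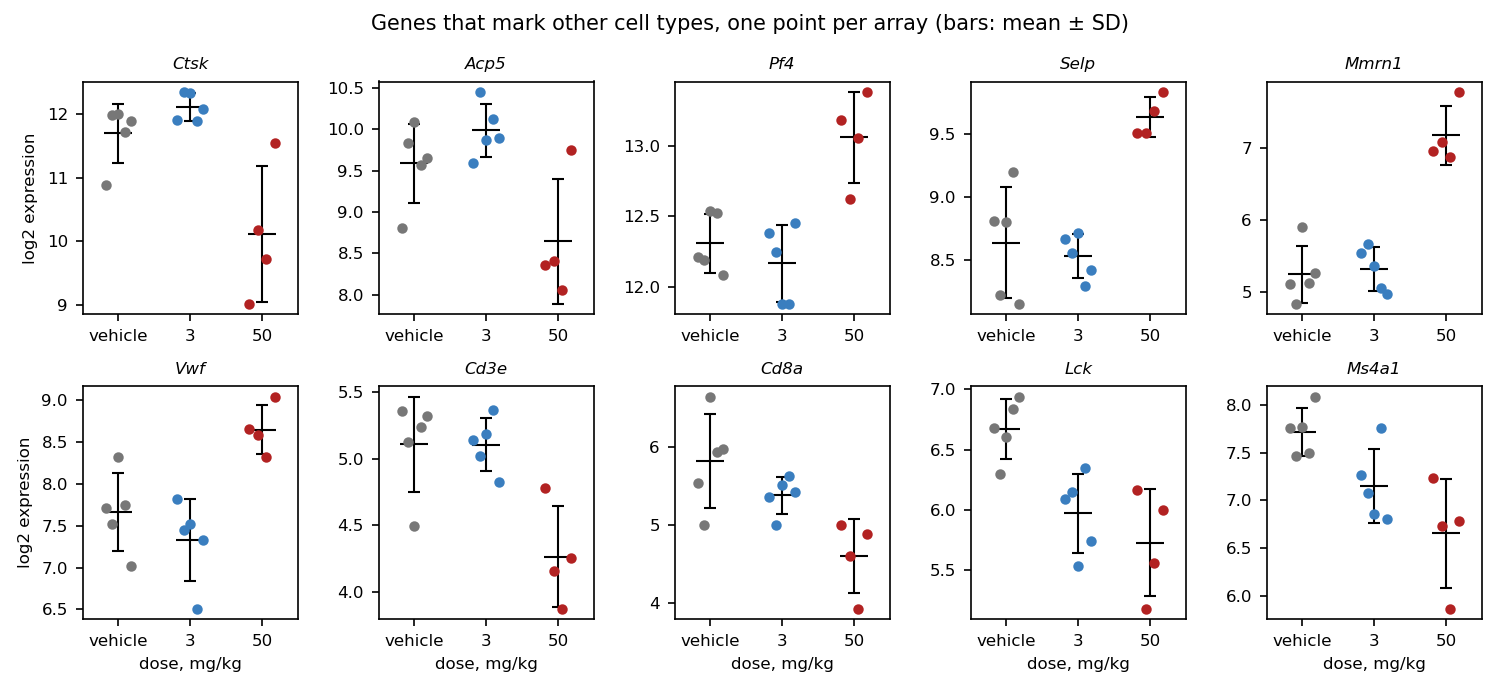
Log2 signal (vertical axis) of osteoclast, megakaryocyte and lymphocyte genes in each day 85 osteoblast array, grouped by vehicle, 3 mg/kg and 50 mg/kg; points are arrays and bars the mean ± SD of a group. For Ctsk, 50 mg/kg array 4 at 11.55 sits with the vehicle arrays while the other 3 lie between 9.02 and 10.17.

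At 3 mg/kg the 10 called genes were no members of the matrix lists. Cpd, carboxypeptidase D, a processing enzyme of the Golgi, had signals of 4.67, 4.68, 4.61, 4.14 and 5.07 in vehicle, 6.33, 6.61, 6.37, 5.69 and 5.80 at 3 mg/kg, and 5.62, 6.13, 5.46 and 5.06 at 50 mg/kg. The low-dose arrays lay above all vehicle arrays, and the high-dose arrays lay between or within these ranges. The rise was 1.53 (SE 0.26, limma adjusted p = 0.00112) at 3 mg/kg, 2.88-fold, and held under each alternative and without any one array, though a Cpd probe set of lower signal gave −0.09. At 50 mg/kg it was 0.93 (SE 0.28, adjusted p = 0.0354), a call lost under 5 alternatives and without 5 of 9 arrays, and the difference of −0.60 between the doses (SE 0.28, adjusted p = 0.381) did not pass.

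The other 9 each lost the call under at least 1 alternative. Pitrm1, a mitochondrial peptidase, rose by 0.94 (SE 0.17, limma adjusted p = 0.00293) and lost the call only with the compared groups alone. Cdca2, a chromatin-bound phosphatase subunit of dividing cells, rose by 1.25 (SE 0.24, adjusted p = 0.00496), with the call lost without vehicle array 4 or 3 mg/kg array 4. Its other probe set, of slightly higher vehicle signal (6.36 against 6.26), gave 0.17. Smo, the signal transducer of the Hedgehog pathway, rose by 1.04 (adjusted p = 0.0333), Shroom2 by 1.03 (adjusted p = 0.0323), Pfkfb4, a regulator of glycolysis, by 0.95 (adjusted p = 0.0251) and Zfp438 by 0.72 (adjusted p = 0.0251). Ccdc159 changed by −1.15 and Zyg11b by −0.71 (adjusted p = 0.0251 for each). These 6 lost the call under 3 or 4 alternatives and without 4 to 6 of 10 arrays. Other probe sets of lower signal gave −0.31 for Smo, −0.07 for Pfkfb4 and 0.08 for Zyg11b at 3 mg/kg. The count of 10 was 19 without vehicle array 1, 6 without vehicle array 5, 5 without 3 mg/kg array 2, 3 without 3 mg/kg array 5 and 1 with the compared groups alone, and quantile normalization gave 10 higher and 6 lower.

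Between the doses, 111 of the 142 genes that differed were also called at 50 mg/kg against vehicle, a share of genes fixed in part by the 50 mg/kg arrays that both contrasts use. Of the 395 tested genes of the function lists 9 were higher at 50 than at 3 mg/kg and 0 were lower, beside 1.04% and 0.201% of all genes. The 9 included Col11a1 (1.68, SE 0.46, limma adjusted p = 0.0423), Col11a2 (1.11, SE 0.31, adjusted p = 0.0426), Col13a1 (0.83, SE 0.23, adjusted p = 0.0423) and Omd (1.31, SE 0.30, adjusted p = 0.0102), besides Smoc2, Lox, Twist1, Timp3 and Slc13a5, whose values stand above. The calls on Col11a1 and Col11a2 were each lost without 7 of 9 arrays and that on Col13a1 without 8, each also under 3 or 4 alternatives, that on Omd without 3 mg/kg array 4 or 50 mg/kg array 1 or 2, and that on Twist1 without 50 mg/kg array 4. Col1a1 differed by 1.04 between the doses (SE 0.43, adjusted p = 0.297) and Col1a2 by 0.72 (SE 0.40, adjusted p = 0.481), which did not pass. Among all genes, Meis1, a homeobox gene of blood stem cells and megakaryocytes, was higher by 1.80 (SE 0.33, adjusted p = 0.000514), and Rbpms2, an RNA-binding protein, by 1.75 (SE 0.26, adjusted p = 1.84e-05). The count of 142 was 33 without 50 mg/kg array 4, 42 without 3 mg/kg array 4 and 94 without 3 mg/kg array 3.

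The response at 50 mg/kg was set against that of other osteoblast groups of the same study, as a test of the difference of differences. Each group had its own vehicle arrays. Against the osteoblast response on day 183, 7 genes had a more positive response on day 85 and 9 a more negative one, 0.0613% and 0.0788% of 11420. Slc13a5 differed by 1.90 (SE 0.36, limma adjusted p = 0.00403): its difference from vehicle was 2.11 on day 85 and 0.21 (SE 0.25, adjusted p = 0.719) on day 183. Serpinh1 differed by 1.24 (SE 0.28, adjusted p = 0.0337), with 1.06 on day 85 and −0.18 on day 183, Os9 by 1.39 (SE 0.28, adjusted p = 0.00832) and Shroom2 by 1.45 (SE 0.34, adjusted p = 0.0372). Oga differed by −1.80 (SE 0.31, adjusted p = 0.00118), with −1.35 on day 85 and 0.45 on day 183. Semg1 (1.25), Hipk1 (−1.53), Gng10 (−1.52) and Eef1a1 (−1.36) differed too, yet none of these 4 was called on day 85 itself. With the mean over probe sets Os9, Oga, Serpinh1 and Eef1a1 lost the call, and without vehicle array 4, the one of low signal range, Serpinh1 and Shroom2 did. Serpinh1 and Gng10 lost it without 4 of the 9 day 85 arrays, Shroom2 without 5 and Eef1a1 without 50 mg/kg array 4.

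No fibrillar collagen passed the test of day 85 against day 183. Col1a1 differed by 2.19 (SE 0.59, limma adjusted p = 0.0974), with 2.41 on day 85 and 0.22 (SE 0.41, adjusted p = 0.836) on day 183. On earlier days its difference at 50 mg/kg was 0.85 (SE 0.41, adjusted p = 0.202) on day 8 and 1.97 (SE 0.41, adjusted p = 0.000225) on day 29. The 16 genes of the day 183 comparison became 0 with the compared groups alone (1180 had an unadjusted p under 0.05 in the fit of all osteoblast arrays), and 50 higher and 38 lower with quantile normalization. Of the day 85 arrays, leaving out vehicle array 3, 50 mg/kg array 2 or 50 mg/kg array 4 gave 8, 10 and 6 genes.

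Against day 29, 1911 genes had a more positive and 707 a more negative response on day 85, 16.7% and 6.19% of those tested. The median over all genes was 0.16, so the response of the whole array was shifted, and with quantile normalization the median was 0.01 and the counts 992 and 742. With the signal range of each array as a covariate 0 genes were called. The values that follow are as fitted, with that median not subtracted. Oat, an enzyme of ornithine and proline metabolism, differed by 2.18 (SE 0.36, limma adjusted p = 9.81e-05), with 1.32 on day 85 and −0.86 on day 29. Wipi1, an autophagy gene, differed by 2.33, Erbin, a scaffold protein, by 2.20 and Ranbp9 by 2.13, and Smarca4 (−1.59), Icos (−1.58), Heatr6 (−1.52) and Gbf1 (−1.45) differed the other way. On day 85 itself the other probe set of Wipi1 gave −0.10 against vehicle beside 0.76 from the one used. That of Heatr6 gave 0.01 beside −0.83. Both genes kept the day 29 call with the mean over probe sets. Of the 9 megakaryocyte markers tested, 0 were called against day 29, with a median of 0.34 beside 0.16 for all genes. Mmrn1 and Alox12 lie outside that list and were picked here after their values were seen. Mmrn1 differed by 1.67 (SE 0.43, limma adjusted p = 0.00436), with 1.92 on day 85 and 0.25 (SE 0.30, adjusted p = 0.533) on day 29. Alox12 differed by 1.35 (SE 0.43, adjusted p = 0.0172), a call lost with quantile normalization. Col1a1 differed by 0.44 (SE 0.59, adjusted p = 0.6) and Ctsk by −0.45 (SE 0.42, adjusted p = 0.439), and neither passed. Slc13a5 and Serpinh1 did not pass against day 29 either.

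Lining cells, the flat cells that cover resting bone, were captured from the same study on the same day. Of 12507 genes tested in the fit of all arrays, 35 had a more positive response to 50 mg/kg in osteoblasts than in lining cells and 28 a more negative one, 0.28% and 0.224%. Slc13a5 differed by 2.40 (SE 0.37, limma adjusted p = 3.79e-06), with 2.11 in osteoblasts and −0.29 (SE 0.25, adjusted p = 0.671) in lining cells. Serpinh1 differed by 1.32 (SE 0.29, adjusted p = 0.00701), with −0.26 (SE 0.20, adjusted p = 0.613) in lining cells. Lxn, a carboxypeptidase inhibitor, differed by 1.92, Egln1, an oxygen sensor, by 1.66 and Mpzl1 by 1.63, while Ccdc159 (−1.70), Icos (−1.56), Oga (−1.37) and Tulp2 (−1.21) differed the other way. Lxn and Mpzl1 had fallen in lining cells (−1.11, adjusted p = 0.0211, and −1.22, adjusted p = 0.00296). Oga and Icos lost the call with the mean over probe sets, Oga also without 9 of 19 arrays and Egln1 lost it without lining cell vehicle array 4. No fibrillar collagen passed: Col1a1 differed by 1.27 (SE 0.61, adjusted p = 0.335), with 1.14 (SE 0.42, adjusted p = 0.171) in lining cells. The count of 63 was 1 with array weights and 0 with the compared groups alone (1713 had an unadjusted p under 0.05 in the fit of all arrays).

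Leaving out single arrays moved the lining cell comparison both ways. It gave 41, 37 and 34 genes without the osteoblast arrays vehicle 4, 50 mg/kg 1 and 50 mg/kg 4. Without lining cell arrays vehicle 1, vehicle 5, 50 mg/kg 1, 50 mg/kg 2 and 50 mg/kg 5 it gave 149, 32, 162, 41 and 34.

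**Figure D5:**
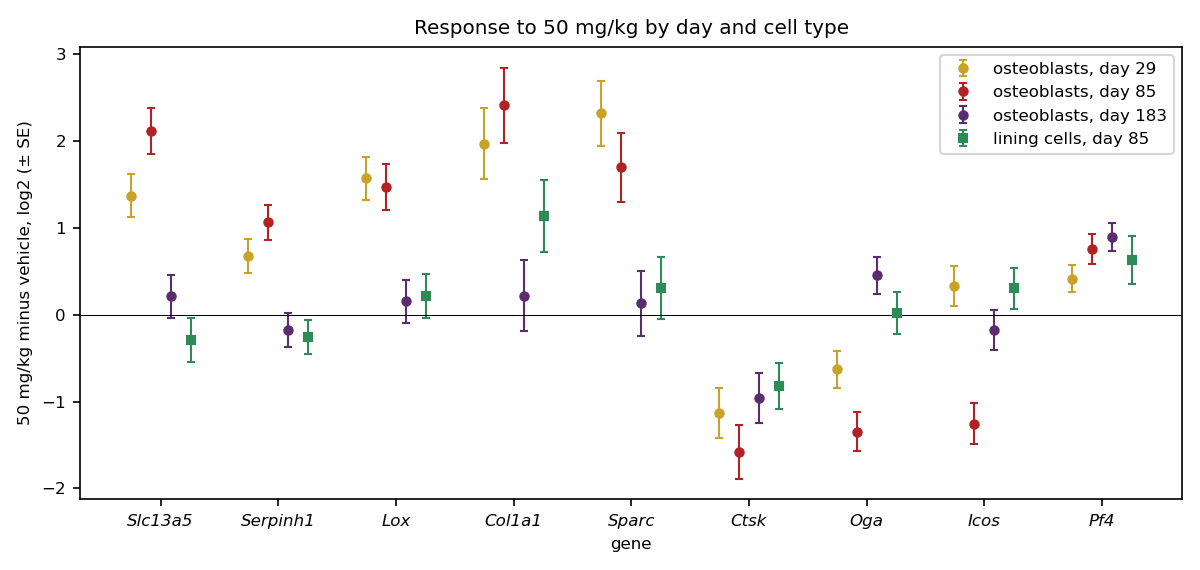
Log2 difference between 50 mg/kg and vehicle with its standard error (vertical axis) for named genes in osteoblasts on days 29, 85 and 183 and in lining cells on day 85. Slc13a5 stands at 2.11 in day 85 osteoblasts, 0.21 in day 183 osteoblasts and −0.29 in day 85 lining cells, and Col1a1 at 2.41, 0.22 and 1.14. For neither gene did the difference between the day 85 and day 29 responses pass the test.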

How the data were processed

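The authors deposited normalized intensities of each array on a linear scale; per the submitters' processing notes, RMA, the affy package 1.38.1 under R 3.0.1, and Affymetrix Expression Console were used, in roles not given in the sources used here. RMA subtracts background, scales arrays to one another and summarizes probes, so differences are relative to the whole array, and amplification of small captures adds noise. Log2 of these values was taken. Of 31042 probe sets, 20826 were assigned to 1 gene and used (14217 genes), 436 to several, and 9780 were not listed in the platform annotation and are unnamed here. Each gene was measured by its probe set of highest mean, and was tested when above the array median in at least 5 arrays of the fit.

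Differences were tested with limma 3.58.1 in R 4.3.3 (lmFit, eBayes) on all 97 osteoblast arrays in 20 groups, which share 1 estimate of the spread; lining cells were compared in a fit of all arrays. Benjamini-Hochberg adjustment ran over all genes tested, and genes with an adjusted p under 0.05 were called. SE is that of the moderated fit. The fits were tested on simulated data in which a gene had the same spread in all groups, so unequal spread between groups was not covered. Array intensities have no read depth; precision is limited by how many arrays there were. Replicate numbers were given in order of accession only and pair no samples.

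The genes named were the 10 largest called rises and 8 largest called falls at each dose, up to 4 in each direction for each difference of responses, up to 4 called members of each list, and fixed bone genes. Other members that complete a count, such as Col11a2, Col27a1, Dcn, Pf4, Ppbp and Tie1, and Serpinh1, Os9, Alox12 and Mmrn1 in comparisons where the rule did not name them, were chosen after their values were seen. Of the genes this rule names at 3 mg/kg, 1 is not reported here. The groups and lists were chosen with earlier results of these data known. Promoter sequences come from RefSeq (GRCr8); 9505 of the 11420 tested genes have an entry, and Col1a1 is named only.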

Additional observations from a re-analysis of the deposited data

Results flagged for a closer look

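The highest or lowest array of a group stood apart from the others, by Dixon's test at the 95% level, in 19 of the 348 groups of 4 or 5 arrays checked for the named genes and the signal range. Chance gives about 1 in 20 such groups, so 19 is near the number that chance gives. Among the vehicle arrays these were Col27a1 at 4.64, Col13a1 at 2.27, Twist1 at 4.17, Cdh2 at 5.17, Ctsk at 10.89, Cd3e at 4.49, Zyg11b at 4.28, Egln1 at 7.26, Erbin at 3.74, Ranbp9 at 4.96 and the signal range at 2.95. At 3 mg/kg they were Col13a1 at 2.69, Lox at 4.42, Myc at 6.18, Ltbp2 at 5.85 and Tfrc at 8.90. At 50 mg/kg they were Col6a1 at 7.0, Myc at 5.52 and Smo at 6.10. Myc, a Wnt target and growth gene, was not called at either dose (low dose 0.17, limma adjusted p = 0.846; high dose 0.21, adjusted p = 0.565).

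The response to 50 mg/kg differed between day 85 and another group of the study, by the tested difference of differences, for the following genes. Against day 29 the log2 difference was 1.35 for Alox12, 2.20 for Erbin, −1.45 for Gbf1, −1.52 for Heatr6, −1.58 for Icos, 1.67 for Mmrn1, 2.18 for Oat, 2.13 for Ranbp9, −1.59 for Smarca4 and 2.33 for Wipi1. Against day 183 it was −1.36 for Eef1a1, −1.52 for Gng10, −1.53 for Hipk1, −1.80 for Oga, 1.39 for Os9, 1.25 for Semg1, 1.24 for Serpinh1, 1.45 for Shroom2 and 1.90 for Slc13a5. Against lining cells of day 85 it was −1.70 for Ccdc159, 1.66 for Egln1, −1.56 for Icos, 1.92 for Lxn, 1.63 for Mpzl1, −1.37 for Oga, 1.32 for Serpinh1, 2.40 for Slc13a5 and −1.21 for Tulp2.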

How the results depend on the processing

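No paired analysis was possible because the labels give no replicate numbers. The 519 genes called at 50 mg/kg were 333 with array weights and 132 with the compared groups alone, and 254 to 557 with single arrays left out. The 10 genes at 3 mg/kg were 16 with quantile normalization, 5 with the mean over probe sets, 2 with array weights and 1 with the compared groups alone, and 3 to 19 with single arrays left out. The 142 genes that differed between doses were 33 to 150 with single arrays left out. The 2618 genes of the day 29 difference were 1734 with quantile normalization, 0 with the signal range as a covariate, and 1952 to 2677 with single arrays left out. The 16 of the day 183 difference were 29 without the filter, 88 with quantile normalization, 35 with array weights, 64 with the signal range as a covariate, 0 with the compared groups alone, and 6 to 21 with single arrays left out. The 63 of the lining cell difference were 41 with quantile normalization, 1 with array weights, 0 with the compared groups alone, and 32 to 162 with single arrays left out. Fits of the compared groups alone have fewer arrays to estimate the spread and take it from those groups only. In such a fit the 142 genes that differed between doses were 121. The cause of these changes was not tested. No called value changed sign. Of named gene values, 647 lost the call, 3156 did not change it and 27 without a call changed sign; 137 of the list counts moved by over 1.5 times, or to or from 0, and 311 did not. The share of rises among calls at 50 mg/kg was 75.5%, against 67.1% with quantile normalization and 63.0% with the signal range as a covariate (218 higher and 128 lower).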
